A study of Mus musculus with 15 samples.

Results

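Hox genes were measured by 51 of the 45037 probe sets that were not controls on an Affymetrix mouse genome array. The members are all probe sets whose platform annotation gives a symbol of Hoxa, Hoxb, Hoxc or Hoxd followed only by a number. The rule itself thus uses no measured value, though it was set with earlier results of these data known. Of the 51 probe sets, 48 carried 1 gene symbol and stood for 33 Hox genes, 11 of them with several probe sets. The other 3 were shared by neighbouring genes (Hoxb8 with Hoxb7 and, on each of the remaining pair, Hoxd4 with Hoxd3).

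The 15 arrays held RNA of male C57BL6J mice aged 10 to 12 weeks that carried 1 intact copy of Notch3 (Notch3 +/-) or none (Notch3 -/-). Mural cells of the brain (the label is SMC/pericyte, for smooth muscle cells and pericytes of the vessel wall) were isolated by FACS from 4 Notch3 +/- mice (replicates E, G, I and H) and from 5 Notch3 -/- mice (A, B, C, D and F), at 1 array per mouse by the design text. Explants of aorta gave 3 arrays of Notch3 +/- (5556, 5561 and 6166) and 3 of Notch3 -/- (5558, 5559 and 6167). Whether different mice gave the aorta arrays is not stated in the labels, and p-values in aorta then cover only the spread among these arrays. No wild-type arrays were analysed here. Brain RNA came from sorted cells in a column kit's buffer and aorta RNA from whole tissue through Trizol and columns, so tissue, cell makeup and extraction cannot be told apart in any difference between brain and aorta. Values below are probe-set intensities that the authors had brought to a common target of 150, and each list of array values follows the replicate order just given.

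Hox genes encode homeodomain transcription factors and lie in 4 chromosomal clusters, A to D, in which paralogue numbers run from 1 at one end to 13 at the other. In the embryo, genes of low number are switched on early and reach far forward into the hindbrain, and genes of high number are confined to the posterior trunk and limb buds, so that the set of active Hox genes marks position along the body axis. Forebrain and midbrain form in front of the Hox domains. Many adult connective tissue and vessel wall cells go on transcribing the Hox genes of the place where they arose. Mural cells of the forebrain derive largely from cephalic neural crest, and smooth muscle of the descending aorta from trunk mesoderm.

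The sorted brain cells and the aorta explants both held mural transcripts, with 10 or 11 of 11 mural markers above a reference for unexpressed genes in each group. That reference is the 95th percentile of 43 olfactory receptor probe sets on the same array, which lay between 69.3 and 110 in brain and between 41.2 and 55.9 in aorta, and a gene counts as above it in a group when every array of the group is. Notch3 read 2326 to 2805 in Notch3 +/- and 150.3 to 249 in Notch3 -/- brain, and 362 to 453 and 80.1 to 146 in aorta. It is itself among the 11 mural markers and counted as above the reference in both Notch3 -/- groups. A reading above the reference thus does not show an intact gene. The brain cells also carried transcripts of other cell types. All 5 astrocyte markers were above the reference there. Summed oligodendrocyte markers ranged from 19320 to 29790, those of choroid plexus and ependyma (mostly Ttr) from 18500 to 44900, and those of microglia and macrophages from 8034 to 15150. Only part of these lists was above the reference in brain. That held for 2 or 3 of 4 oligodendrocyte, 2 or 3 of 5 choroid plexus and ependyma, and 2 of 5 microglia and macrophage markers. Microglia and macrophage markers summed to 2383 to 3286 in aorta, with 3 of 5 above its reference. In aorta the summed fibroblast markers ranged from 37730 to 41050, against 4078 to 8988 in brain, and 4 or 5 of 6 adipocyte markers and 2 or 3 of 7 striated muscle markers were above the reference, against none of either in brain.

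Many Hox transcripts were higher in aorta explants than in sorted brain mural cells. Those that were higher came mainly from the A and B clusters and from paralogue numbers 2 to 6. At the brightest probe set of each gene, 13 of 33 Hox genes were called higher in aorta and 0 in brain in the Notch3 +/- arrays, where 16.7% of all 18193 named genes were called higher in aorta and 19.6% in brain (limma, Benjamini-Hochberg adjusted p under 0.05). In the Notch3 -/- arrays, which share no sample with the first comparison, 16 Hox genes were called higher in aorta and 1, Hoxa11, in brain, beside 20.7% and 25.9% of named genes. The same 13 genes were called higher in aorta in both genotypes (15.3% of named genes were), namely Hoxa2, Hoxa3, Hoxa4, Hoxa5, Hoxa10, Hoxb2, Hoxb3, Hoxb4, Hoxb5, Hoxb6, Hoxb9, Hoxc4 and Hoxc8, and Hoxa9 and Hoxd8 join them at a dimmer probe set. The median log2 difference, brain minus aorta, over the 33 genes was -0.34 in Notch3 +/- and -0.37 in Notch3 -/-, against 0.12 in each genotype over all named genes. All aorta arrays lay above all brain arrays for 13 of 33 Hox genes in Notch3 +/- and 16 in Notch3 -/-, beside 20.5% and 21.3% of named genes. Over the 48 probe sets with 1 gene, 19 were called higher in aorta in both genotypes, beside 12.4% of all probe sets. Fewer cells of a type and less RNA per cell cannot be told apart in these samples.

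**Figure D1:**
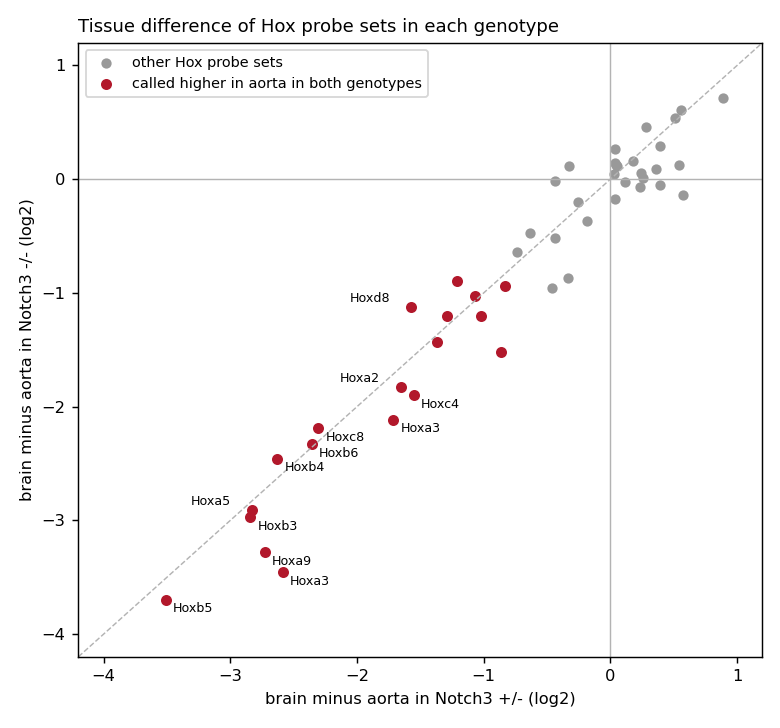
Log2 difference, brain minus aorta, of each of the 48 Hox probe sets with 1 gene in Notch3 +/- arrays (horizontal) and Notch3 -/- arrays (vertical), 1 point per probe set, with the dashed line marking equal differences. The 19 red probe sets, called higher in aorta in both genotypes, reach from -3.51 in Notch3 +/- and -3.70 in Notch3 -/- for Hoxb5 up to values near -0.83 for the dimmer Hoxa4 probe set, and the grey ones gather around 0.

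Against the olfactory reference, the count of Hox genes above it was 0 of 33 in Notch3 +/- brain, 1 in Notch3 -/- brain (Hoxa5), and 10 in aorta of either genotype. The 10 were Hoxa2, Hoxa3, Hoxa5, Hoxb2, Hoxb3, Hoxb4, Hoxb5, Hoxb6, Hoxc6 and Hoxc8 in both. Hoxc6 itself was not higher in aorta, with a mean of 89.7 over the brain arrays and 87 over the aorta arrays. It counts in aorta only because the reference was lower there, and its probe set is of a kind whose probes can match other transcripts. Of all named genes 42.8% and 44.3% were above the reference in Notch3 +/- and -/- brain, and 56.3% and 56.1% in aorta. The reference rests on few probe sets and was itself higher in brain, where 6 of the 43 olfactory probe sets were called higher than in aorta in each genotype and 0 lower. Without replicate E the count in Notch3 +/- brain was 2.

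Promoter sequences from the RefSeq table (assembly GRCm38.p6, the 250 bases before a transcript start) were at hand for 24 starts of 22 Hox genes. The 5 below are shown to set Hoxa5, Hoxb4 and Hoxc4, which were higher in aorta, and Hoxa9, which was so only at its dimmer probe set, beside Hoxa13, a gene of the posterior end that was not. Each reads 5′ to 3′ along the gene, with capitals marking the core motif AGGTCA of retinoic acid receptors on either strand (TGACCT where the match lies on the other strand).

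Hoxa5: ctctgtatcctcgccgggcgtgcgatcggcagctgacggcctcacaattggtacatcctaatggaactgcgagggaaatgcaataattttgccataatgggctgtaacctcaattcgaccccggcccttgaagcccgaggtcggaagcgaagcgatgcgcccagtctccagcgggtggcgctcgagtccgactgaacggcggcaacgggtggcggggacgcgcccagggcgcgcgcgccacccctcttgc
Hoxa9: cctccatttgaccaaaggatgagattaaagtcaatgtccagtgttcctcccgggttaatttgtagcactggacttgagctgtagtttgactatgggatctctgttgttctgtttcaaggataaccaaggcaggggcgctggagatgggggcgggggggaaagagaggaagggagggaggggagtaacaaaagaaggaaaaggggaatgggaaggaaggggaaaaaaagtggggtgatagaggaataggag
Hoxb4: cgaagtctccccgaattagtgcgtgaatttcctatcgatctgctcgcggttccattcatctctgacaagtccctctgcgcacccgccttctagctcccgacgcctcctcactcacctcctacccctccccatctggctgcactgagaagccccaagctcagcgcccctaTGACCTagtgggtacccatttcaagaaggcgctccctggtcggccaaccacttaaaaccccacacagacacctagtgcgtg
Hoxc4: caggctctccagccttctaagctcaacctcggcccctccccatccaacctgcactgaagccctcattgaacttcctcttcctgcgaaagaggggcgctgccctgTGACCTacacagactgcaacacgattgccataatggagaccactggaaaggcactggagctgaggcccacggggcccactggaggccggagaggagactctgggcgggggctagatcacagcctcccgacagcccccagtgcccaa
Hoxa13: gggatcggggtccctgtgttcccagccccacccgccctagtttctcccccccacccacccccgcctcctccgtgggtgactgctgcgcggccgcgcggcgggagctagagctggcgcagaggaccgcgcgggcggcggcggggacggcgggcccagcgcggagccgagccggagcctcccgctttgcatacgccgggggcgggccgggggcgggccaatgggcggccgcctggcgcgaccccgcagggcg

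They lie at chr6:52204588-52204837, - strand (Hoxa5), chr6:52227371-52227620, - strand (Hoxa9), chr11:96318017-96318266, + strand (Hoxb4), chr15:103034145-103034394, + strand (Hoxc4) and chr6:52260881-52261130, - strand (Hoxa13). GC content was 63.6% with 28 CpG pairs in the Hoxa5 promoter, 49.6% with 3 in Hoxa9, 58.0% with 14 in Hoxb4, 62.0% with 8 in Hoxc4 and 80.0% with 35 in Hoxa13. The 9 promoters of 8 genes higher in aorta in both genotypes at any probe set (Hoxa9 and Hoxd8 included) had a median GC content of 58.0% (range 44.4 to 64.8) and a median of 8 CpG pairs, and the 12 promoters of 11 measured genes that were not had 59.8% (44.8 to 80.0) and 13. Over all 32851 promoters the medians were 52.4% and 6. The AGGTCA motif was found in 6 of 24 Hox promoters and in 14% of all promoters, among the printed ones in Hoxb4 and Hoxc4. TGATNNAT, the Pbx-Hox motif, was found in 4 of 24 Hox promoters and 7.68% of all, TATAAA in 4 and 12.4%, and CCAAT in 14 and 33.8%, each on both strands and with overlapping matches kept. A match is a description of these letters and not a sign of binding.

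In the A cluster, 5 of 9 genes were higher in aorta in both genotypes at the brightest probe set. Hoxa2, which patterns the hindbrain and the pharyngeal arches, read 103, 126 and 87.04 in Notch3 +/- aorta and 127, 116 and 100.5 in Notch3 -/- aorta. Its brain arrays read 33.5, 16.4, 4.11 and 50.9 in Notch3 +/- and 18.6, 14.4, 34.1, 24.5 and 14.6 in Notch3 -/-. All aorta arrays lay above all brain arrays, a 3.14-fold difference on the log2(value + 16) scale in Notch3 +/- and 3.56-fold in Notch3 -/- (log2 -1.65, SE 0.39, adjusted p = 0.00914 in Notch3 +/- and log2 -1.83, SE 0.23, adjusted p = 5.19e-05 in Notch3 -/-). Hoxa3, needed for derivatives of the pharyngeal pouches and for the carotid body, read 160.3, 148 and 122 in Notch3 +/- aorta and 174, 154 and 170.5 in Notch3 -/- aorta. Brain arrays gave 43.4, 32.5, 22.8 and 32.4 in Notch3 +/- and 40.98, 39.9, 4.44, 16.1 and 45.9 in Notch3 -/-. The tissues did not overlap (log2 -1.72, SE 0.23, adjusted p = 3.14e-04 in Notch3 +/- and log2 -2.12, SE 0.34, adjusted p = 3.75e-04 in Notch3 -/-). Hoxa4, expressed in the cervical region, read 33.9, 42.8 and 23.2 in Notch3 +/- aorta and 61.5, 23.2 and 45.4 in Notch3 -/- aorta. The brain values were 4.52, 2.26, 2.93 and 1.76 in Notch3 +/- and 4.12, 15.1, 0.282, 7.69 and 1.84 in Notch3 -/-. Its aorta arrays were all above its brain arrays, with 1 of the 6 aorta arrays (5558) above its olfactory reference (log2 -1.37, SE 0.20, adjusted p = 5.58e-04 in Notch3 +/- and log2 -1.43, SE 0.27, adjusted p = 0.00117 in Notch3 -/-).

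Hoxa5, which patterns the cervicothoracic skeleton and the lung, was called at both of its probe sets, and they differed in size. The brighter one read 314, 295 and 263 in Notch3 +/- aorta and 276, 296 and 395 in Notch3 -/- aorta. In brain it read 86.05, 83.1, 160.2 and 239.5 in Notch3 +/- and 172, 171, 155, 143 and 110.2 in Notch3 -/-. It was 2.1-fold and 2.03-fold higher in aorta (log2 -1.07, SE 0.31, adjusted p = 0.0256 in Notch3 +/- and log2 -1.02, SE 0.17, adjusted p = 4.51e-04 in Notch3 -/-). The dimmer one read 203, 209 and 194 in Notch3 +/- aorta and 228, 298 and 229 in Notch3 -/- aorta. Its brain arrays read 7.11, 4.42, 39.2 and 18.1 in Notch3 +/- and 33.4, 19.3, 30.8, 10.9 and 9.22 in Notch3 -/-. There the difference was 7.1-fold and 7.51-fold (log2 -2.83, SE 0.34, adjusted p = 1.38e-04 in Notch3 +/- and log2 -2.91, SE 0.26, adjusted p = 3.39e-06 in Notch3 -/-). The brain signal of Hoxa5 above the reference was thus seen at the brighter probe set only, whose identifier marks probes that can match other transcripts. Hoxa10, a gene of the lumbar region and the uterus, read 80.98, 65.6 and 32.4 in Notch3 +/- aorta and 42.04, 88.1 and 40.2 in Notch3 -/- aorta. Brain arrays gave 31.4, 8.34, 28.8 and 15.6 in Notch3 +/- and 30.9, 17.2, 8.31, 7.63 and 12.8 in Notch3 -/-. Its tissues did not overlap, and it was the sole gene of paralogue numbers 10 to 13 called in both genotypes (log2 -1.02, SE 0.34, adjusted p = 0.0479 in Notch3 +/- and log2 -1.201, SE 0.30, adjusted p = 0.00665 in Notch3 -/-). The Notch3 +/- call of Hoxa10 was lost in 6 of 14 alternative settings, with adjusted p up to 0.6 when its probe sets were averaged.

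Hoxa9, known for its part in blood stem cells and leukaemia, depended on the probe set, and was singled out after its values were seen. At the brighter probe set its arrays overlapped between tissues (log2 0.24, SE 0.45, adjusted p = 0.744 in Notch3 +/- and log2 -0.07, SE 0.29, adjusted p = 0.879 in Notch3 -/-). At the other it read 183, 187 and 100 in Notch3 +/- aorta and 154, 283 and 191 in Notch3 -/- aorta. The brain values were 5.796, 16.7, 2.08 and 15.7 in Notch3 +/- and 3.104, 13.5, 14.6, 3.901 and 0.858 in Notch3 -/-. There the tissues did not overlap, with a 6.62-fold and a 9.72-fold difference (log2 -2.73, SE 0.32, adjusted p = 1.23e-04 in Notch3 +/- and log2 -3.28, SE 0.28, adjusted p = 2.23e-06 in Notch3 -/-). Hoxa3 also had probe sets that differed. One of the dimmer ones gave log2 -2.58, SE 0.42, adjusted p = 9.71e-04 in Notch3 +/- and log2 -3.46, SE 0.22, adjusted p = 2.00e-07 in Notch3 -/-. The identifier of that probe set marks probes that can match several transcripts. Another was called higher in brain in Notch3 -/- (log2 0.54, SE 0.19, adjusted p = 0.0436), and the last was not called. Hoxa11, a gene of the forearm and the uterus, went the other way. It read 25.9, 29.7 and 45.4 in Notch3 +/- aorta and 20.3, 21.97 and 25.98 in Notch3 -/- aorta. In brain it read 65.8, 50.6, 61.2 and 47.6 in Notch3 +/- and 49.2, 50.99, 41.1, 31.8 and 42.97 in Notch3 -/-. Hoxa11 passed in Notch3 -/- (log2 0.605, SE 0.21, adjusted p = 0.0386) and missed in Notch3 +/- (log2 0.55, SE 0.25, adjusted p = 0.132). That call was lost when any of 7 arrays (A, B, C, F, 5558, 5559 or 6167) was left out, and after quantile normalization.

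In the B cluster, 6 of 9 genes were called higher in aorta in both genotypes, and at the brightest probe sets the widest tissue differences of any Hox gene were those of Hoxb5, Hoxb3, Hoxb4 and Hoxb6. In Notch3 -/- the dimmer probe sets of Hoxa3 and Hoxa9 given above differed more than any of these except Hoxb5. In both genotypes the dimmer probe sets of Hoxa5 and Hoxa9 differed more than the brightest ones of Hoxb4 and Hoxb6. Hoxb5, a gene of the vagal neural crest and the gut wall, read 244, 252 and 173 in Notch3 +/- aorta and 236, 248 and 205 in Notch3 -/- aorta. Its brain arrays read 3.47, 1.604, 5.68 and 8.89 in Notch3 +/- and 5.02, 1.68, 1.26, 2.68 and 3.92 in Notch3 -/-. No brain array came near an aorta array, and the difference on the log2(value + 16) scale was 11.4-fold in Notch3 +/- and 13-fold in Notch3 -/- (log2 -3.51, SE 0.26, adjusted p = 5.52e-06 in Notch3 +/- and log2 -3.698, SE 0.20, adjusted p = 5.44e-08 in Notch3 -/-). Its brain readings lay far below the olfactory reference, so the size of that fold follows the added constant, and log2 ran from -5.39 with a constant of 1 to -2.05 with 64 in Notch3 +/- and from -5.97 to -2.13 in Notch3 -/-. The direction and the call held under both, and the folds of other genes with dim brain readings share this limit. Hoxb3, expressed in the hindbrain and pharyngeal arches, read 400.5, 485 and 315 in Notch3 +/- aorta and 513, 523 and 414 in Notch3 -/- aorta. Brain arrays gave 44.4, 49.8, 26.6 and 47.2 in Notch3 +/- and 39.01, 66.2, 41.4, 69.1 and 29.6 in Notch3 -/-. All aorta arrays exceeded all brain arrays, by 7.17-fold and 7.86-fold (log2 -2.84, SE 0.22, adjusted p = 8.60e-06 in Notch3 +/- and log2 -2.98, SE 0.22, adjusted p = 6.24e-07 in Notch3 -/-), whereas its other, dimmer probe set was not called in either genotype. Hoxb4, a gene of the neck vertebrae that also expands blood stem cells, read 145, 195 and 169 in Notch3 +/- aorta and 202, 217 and 164 in Notch3 -/- aorta. The brain values were 18.1, 6.78, 26.5 and 7.83 in Notch3 +/- and 18.7, 40.4, 18.2, 40.2 and 5.25 in Notch3 -/-. It differed by 6.2-fold and 5.49-fold without overlap (log2 -2.63, SE 0.29, adjusted p = 7.30e-05 in Notch3 +/- and log2 -2.46, SE 0.31, adjusted p = 5.41e-05 in Notch3 -/-), and its dimmer probe set was called too, with log2 -1.29 and -1.21.

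Hoxb6, a gene of the thoracic trunk and lateral plate mesoderm, read 206, 196 and 158 in Notch3 +/- aorta and 171, 255 and 222 in Notch3 -/- aorta. In brain it read 22.3, 33.1, 4.85 and 45.04 in Notch3 +/- and 41.7, 21.4, 22.3, 38.7 and 27.6 in Notch3 -/-. Its 5.12-fold and 5.03-fold differences came without overlap (log2 -2.36, SE 0.35, adjusted p = 5.45e-04 in Notch3 +/- and log2 -2.33, SE 0.22, adjusted p = 4.83e-06 in Notch3 -/-). Hoxb9, a gene of the thoracic ribs, was dim throughout, reading 24.8, 27.9 and 33.4 in Notch3 +/- aorta and 23, 34.7 and 28.7 in Notch3 -/- aorta. Its brain arrays read 3.64, 2.01, 5.01 and 2.41 in Notch3 +/- and 4.896, 7.67, 4.51, 11.8 and 11.9 in Notch3 -/-. All its aorta arrays still lay above its brain arrays (log2 -1.21, SE 0.18, adjusted p = 5.58e-04 in Notch3 +/- and log2 -0.896, SE 0.19, adjusted p = 0.00262 in Notch3 -/-). Hoxb2, which acts in the hindbrain, read 228, 118 and 193 in Notch3 +/- aorta and 173, 167 and 232 in Notch3 -/- aorta. Brain arrays gave 86.3, 57.7, 135 and 88.3 in Notch3 +/- and 60.95, 46.4, 48.8, 84.8 and 42.6 in Notch3 -/-. In Notch3 +/- the tissues overlapped for Hoxb2 through brain replicate I and aorta replicate 5561 (log2 -0.86, SE 0.28, adjusted p = 0.0422), and in Notch3 -/- they did not (log2 -1.52, SE 0.21, adjusted p = 1.13e-04). The Notch3 +/- call of Hoxb2 was lost without any of 5 arrays (E, G, H, 5556 or 6166), with adjusted p up to 0.179. The probe set shared by Hoxb8 and Hoxb7 was called in Notch3 -/- (log2 -1.53, SE 0.33, adjusted p = 0.00314) and not in Notch3 +/- (log2 -0.63, SE 0.29, adjusted p = 0.136). Hoxb1, Hoxb7 and Hoxb13 were not called in either genotype.

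In the C cluster, 2 of 7 genes were called in both genotypes. Hoxc8, a gene of the thoracic skeleton and brachial motor neurons, read 157, 131 and 78.7 in Notch3 +/- aorta and 61.4, 176 and 99.95 in Notch3 -/- aorta. The brain values were 0.909, 14.9, 19.2 and 13.5 in Notch3 +/- and 7.83, 16.3, 4.03, 10.9 and 13.8 in Notch3 -/-. Its aorta arrays were all above its brain arrays, by 4.94-fold and 4.57-fold (log2 -2.31, SE 0.33, adjusted p = 4.80e-04 in Notch3 +/- and log2 -2.19, SE 0.30, adjusted p = 9.56e-05 in Notch3 -/-). Hoxc4, expressed in the neck and upper thorax, read 47.4, 92.4 and 10.1 in Notch3 +/- aorta and 54.99, 93.4 and 32.02 in Notch3 -/- aorta. In brain it read 2.79, 2.46, 5.13 and 2.58 in Notch3 +/- and 4.59, 3.51, 2.15, 2.25 and 4.21 in Notch3 -/-. The aorta arrays of Hoxc4 spread from 10.1 in replicate 6166 to 93.4 in replicate 5559, all above the brain arrays (log2 -1.55, SE 0.40, adjusted p = 0.0142 in Notch3 +/- and log2 -1.898, SE 0.25, adjusted p = 6.42e-05 in Notch3 -/-), and without replicate 5556 the adjusted p in Notch3 +/- was 0.0503. Hoxc5 and Hoxc13 were called higher in aorta in Notch3 -/- (log2 -0.87, SE 0.27, adjusted p = 0.0252 and log2 -0.37, SE 0.13, adjusted p = 0.0447), and the difference between genotypes did not pass for either. Hoxc6 was not called at its brightest probe set, where the tissues overlapped in both genotypes (log2 0.11, SE 0.19, adjusted p = 0.704 in Notch3 +/- and log2 -0.03, SE 0.18, adjusted p = 0.92 in Notch3 -/-), and 1 of its dimmer probe sets was called higher in brain in Notch3 +/- (log2 0.89, SE 0.25, adjusted p = 0.0207).

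In the D cluster, whose best known roles are in the limbs and the urogenital tract, 0 of 8 genes were called at the brightest probe set in either genotype, with log2 differences from -0.74 to 0.39 in Notch3 +/- and from -0.64 to 0.29 in Notch3 -/-. At an unadjusted p under 0.05 only Hoxd9 passed, at 0.0184 and 0.0459, beside 46.6% and 54.1% of named genes. Hoxd9 read 49.4, 43.1 and 23.8 in Notch3 +/- aorta and 20.1, 33.4 and 44.2 in Notch3 -/- aorta. Its brain arrays read 11.4, 19.8, 14.8 and 19.03 in Notch3 +/- and 5.003, 22.9, 21.1, 23.2 and 6.51 in Notch3 -/-. The tissues overlapped in Notch3 -/- and not in Notch3 +/- (log2 -0.74, SE 0.26, adjusted p = 0.0608 in Notch3 +/- and log2 -0.64, SE 0.29, adjusted p = 0.103 in Notch3 -/-). Hoxd8 at its dimmer probe set read 91.6, 30.1 and 66.2 in Notch3 +/- aorta and 31.9, 92.4 and 28.9 in Notch3 -/- aorta. Brain arrays gave 7.34, 16.8, 11.9 and 2.11 in Notch3 +/- and 17.2, 28.6, 10.5, 1.496 and 9.94 in Notch3 -/-. It was called there, without overlap (log2 -1.57, SE 0.34, adjusted p = 0.00573 in Notch3 +/- and log2 -1.13, SE 0.35, adjusted p = 0.0243 in Notch3 -/-), and not at its brighter probe set (log2 -0.44, SE 0.32, adjusted p = 0.352 in Notch3 +/- and log2 -0.02, SE 0.33, adjusted p = 0.978 in Notch3 -/-). Hoxd8 was chosen for mention after its values were seen, and the identifier of its dimmer probe set marks probes that can match several transcripts. Neither probe set shared by Hoxd4 and Hoxd3 was called.

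**Figure D2:**
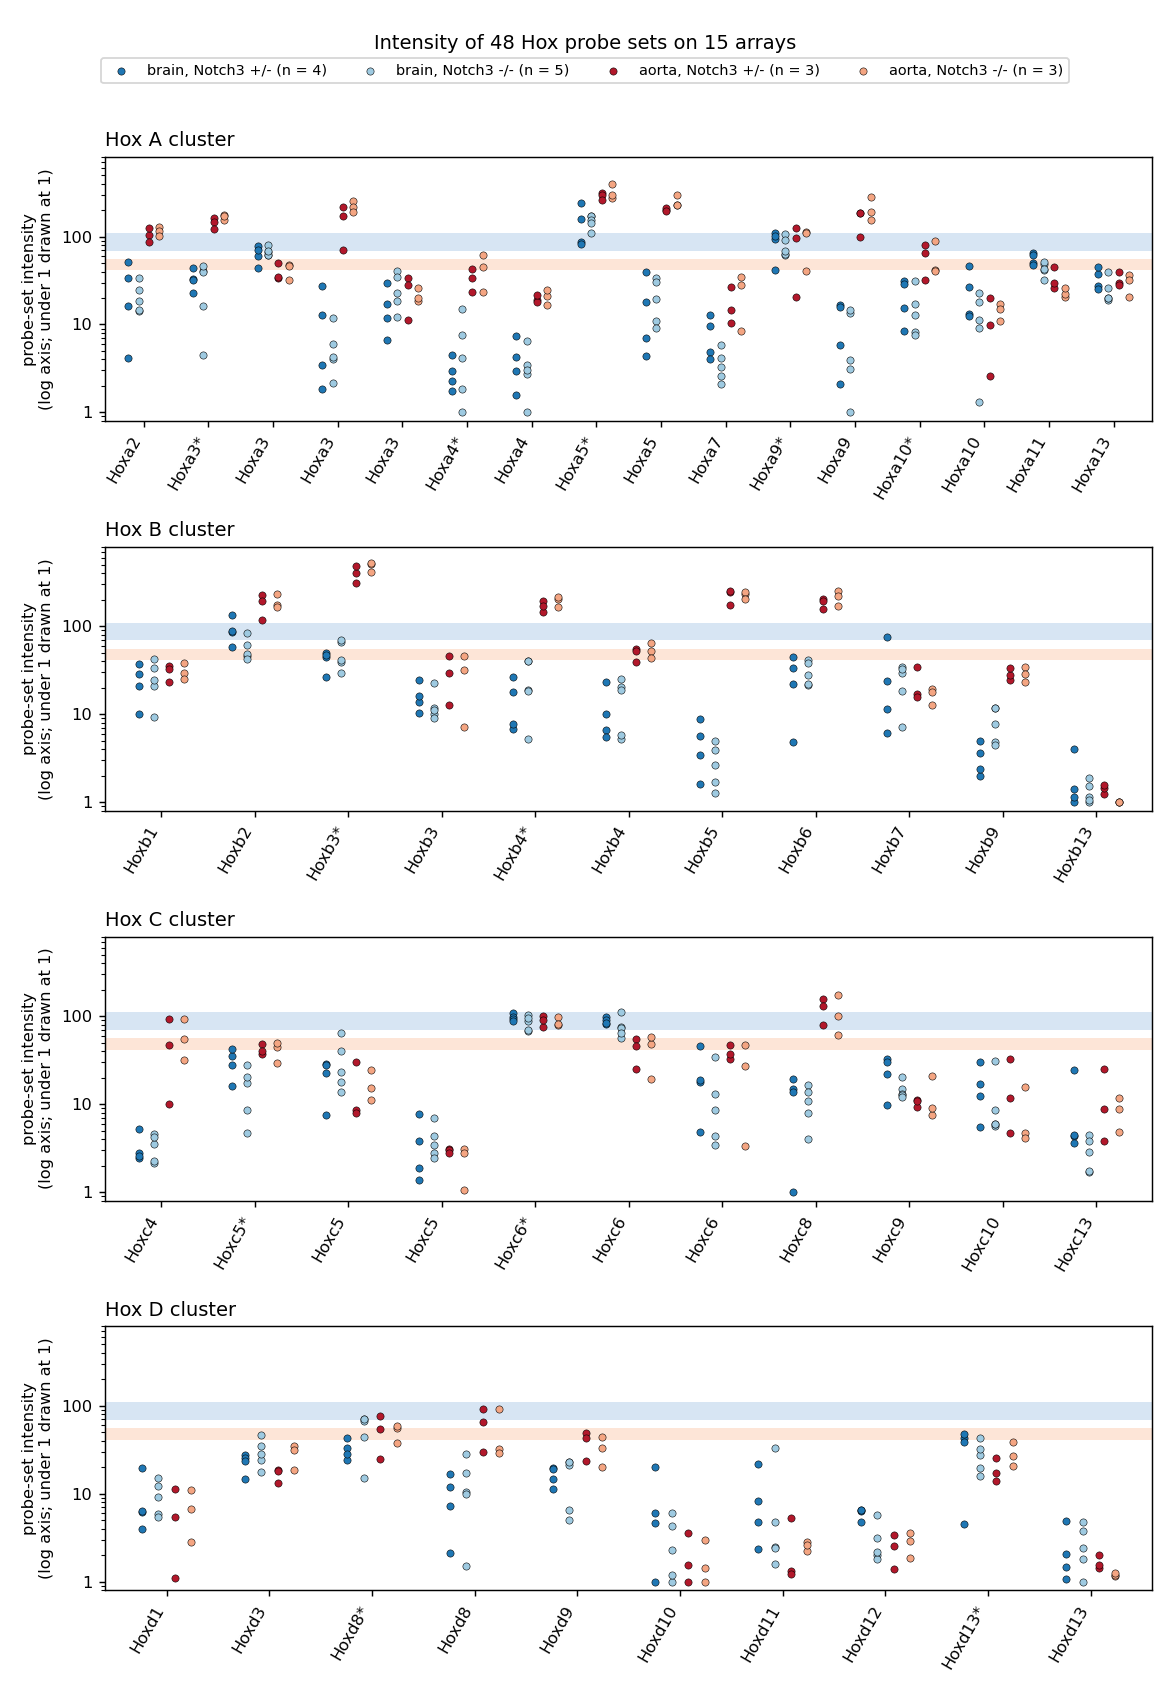
Probe-set intensity (log axis, values under 1 drawn at 1) of the 48 Hox probe sets on 15 arrays, 1 point per array, in panels by cluster with genes in order of paralogue number and an asterisk on the brightest probe set of a gene with several. Dark and light blue points are Notch3 +/- (n = 4) and -/- (n = 5) brain, dark red and orange points Notch3 +/- and -/- aorta (n = 3 each), and the blue and orange bands span the olfactory reference over the brain arrays (69.3 to 110) and the aorta arrays (41.2 to 55.9). At the brightest probe sets of Hoxb3, Hoxb4, Hoxb5 and Hoxb6 all aorta points stand above both bands and all brain points below the blue one.

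By position in the clusters, the calls gathered toward the low numbers. Of the 11 genes measured with paralogue numbers 2 to 5, 9 were higher in aorta in both genotypes, beside 15.3% of all named genes at the brightest probe set. Of the 10 with numbers 6 to 9, 3 were at the brightest probe set and 5 at any, and of the 10 with numbers 10 to 13 only Hoxa10 was. The count at any probe set gives genes with several probe sets more chances, and no share over all genes was taken for it. Hoxb1 and Hoxd1 were not called. All 3 genes with number 4 (Hoxa4, Hoxb4 and Hoxc4) and both with number 2 (Hoxa2 and Hoxb2) were called. The 18 genes that were not higher in aorta in both genotypes at any probe set had log2 differences from -0.74 to 0.55 in Notch3 +/- and from -0.96 to 0.60 in Notch3 -/-. Probe sets differ in how brightly they report a transcript, and a dim probe set understates a difference on this scale, so the counts describe calls and not which genes are transcribed most.

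**Figure D3:**
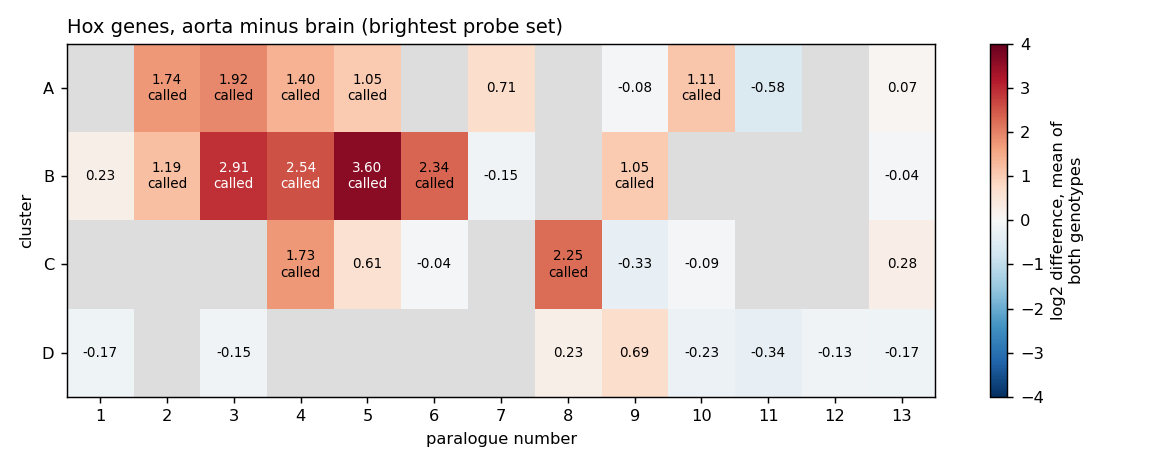
Log2 difference between tissues for the 33 Hox genes at the brightest probe set, here written as aorta minus brain and averaged over both genotypes, by cluster (rows) and paralogue number (columns), where red is higher in aorta and "called" marks genes called in both genotypes. Grey cells hold no value here, and the 13 called cells lie mostly in rows A and B between numbers 2 and 6.

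The 6 aorta arrays differed in their Hox levels. Over the 15 genes called higher in aorta in both genotypes at any probe set, replicate 6166 (Notch3 +/-) had the lowest value for 9 and replicate 5559 (Notch3 -/-) the highest for 9. How often these arrays were lowest or highest over all genes was not counted. The median deviation from each gene's mean over the aorta arrays was -0.31 on the log2 scale in 6166 and 0.25 in 5559, and between -0.07 and 0.11 in the other 4 arrays. The lowest single deviation was -1.29, for Hoxc4 in 6166. Summed adipocyte markers read 7488, 4319 and 7382 in 5556, 5561 and 6166, and 3922, 3404 and 6231 in 5558, 5559 and 6167. Summed fibroblast markers stayed between 37730 and 41050, and replicate 5556 stood apart by its neuron sum of 733 against 143 to 182 on the other aorta arrays. The part of other cell types in the Hox levels was not tested.

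**Figure D4:**
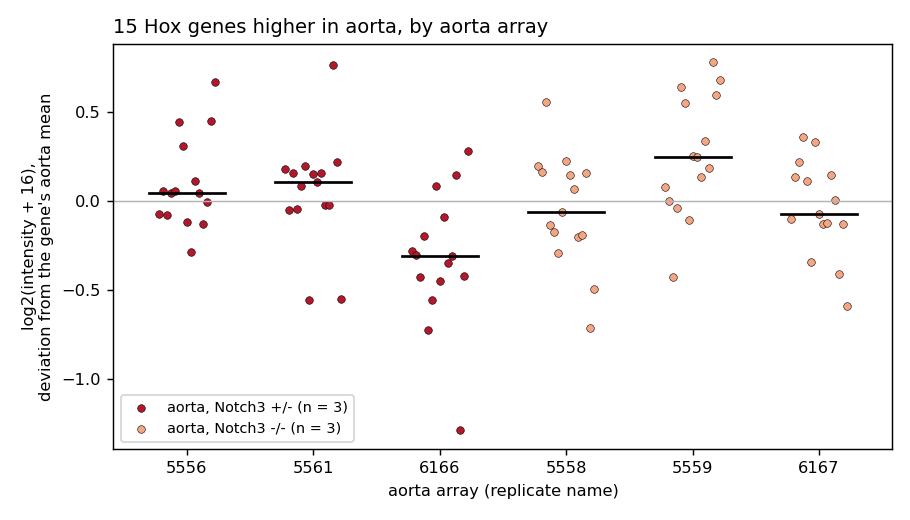
Deviation of each aorta array from the gene's mean over the 6 aorta arrays, on the log2(value + 16) scale, for the 15 Hox genes higher in aorta, 1 point per gene, with bars at the array medians (dark red, Notch3 +/-, and orange, Notch3 -/-). The medians run from -0.31 in replicate 6166 to 0.25 in replicate 5559, and the points of all arrays overlap.

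Loss of the last Notch3 copy changed no Hox gene past the threshold in sorted brain cells. The comparison asks which transcripts of these cells depend on Notch3. Of 33 Hox genes 0 were called in limma, beside 0.0605% of named genes, and 2 had an unadjusted p under 0.05, beside 8.45%. No Hox gene separated the genotypes without overlap, beside 2.87% of named genes. The smallest p belonged to Hoxb9, at 3.64, 2.01, 5.01 and 2.41 in Notch3 +/- and 4.896, 7.67, 4.51, 11.8 and 11.9 in Notch3 -/- (log2 0.32, SE 0.14, adjusted p = 0.655), and to Hoxb2, at 86.3, 57.7, 135 and 88.3 and 60.95, 46.4, 48.8, 84.8 and 42.6 (log2 -0.55, SE 0.25, adjusted p = 0.655). Both genes overlapped between genotypes, Hoxb2 with its highest value in replicate I. Next came Hoxc5, at 27.96, 16.2, 35.1 and 42.1 and 27.9, 4.64, 8.54, 17.4 and 20.2 (log2 -0.56, SE 0.27, adjusted p = 0.665), and Hoxd12, a gene of the digits, at 4.76, 6.297, 6.54 and 6.47 and 2.01, 3.105, 1.83, 5.74 and 2.15 (log2 -0.22, SE 0.12, adjusted p = 0.699). All of these readings except some of Hoxb2 lay below the olfactory reference. Over the 33 genes the log2 differences, Notch3 -/- minus +/-, ran from -0.56 to 0.46 with a median of -0.09, against -0.01 over all named genes. In the same arrays the median log2 difference was -0.47 over 11 mural markers, Notch3 itself among them, and 0.60 over 8 fibroblast markers. Of these, 2 mural markers were called, both lower in Notch3 -/-, and 0 fibroblast markers.

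In aorta, too, 0 of 33 Hox genes were called between genotypes, beside 0% of named genes, and 0 had an unadjusted p under 0.05, beside 4.5%. The smallest p belonged to Hoxd3, a gene of the first neck vertebrae, at 18.8, 18.4 and 13.2 in Notch3 +/- and 34.6, 31.6 and 18.8 in Notch3 -/- (log2 0.42, SE 0.21, adjusted p = 1). Hoxb3 read 400.5, 485 and 315 against 513, 523 and 414 (log2 0.28, SE 0.16, adjusted p = 1), Hoxa11 25.9, 29.7 and 45.4 against 20.3, 21.97 and 25.98 (log2 -0.34, SE 0.21, adjusted p = 1) and Hoxa3 160.3, 148 and 122 against 174, 154 and 170.5 (log2 0.198, SE 0.13, adjusted p = 1). Genotypes overlapped for each of these genes. At the brightest probe set 1 Hox gene, Hoxb13, separated the genotypes without overlap, beside 9.24% of named genes. It read between 0.779 and 1.56, at the bottom of the scale.

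The genotype difference in brain was also set against that in aorta in 1 fit over all 15 arrays. It differed for 0 of 33 Hox genes, beside 0.022% of named genes, and 0 had an unadjusted p under 0.05, beside 4.62%. The smallest p values belonged to Hoxb2 (log2 -0.66, SE 0.36, adjusted p = 1), Hoxd12 (log2 -0.25, SE 0.16, adjusted p = 1), Hoxa7 (log2 -0.496, SE 0.32, adjusted p = 1) and Hoxc5 (log2 -0.53, SE 0.39, adjusted p = 1). For the 12 genes with the widest tissue differences the values were between -0.66 for Hoxb2 and 0.32 for Hoxb9, with standard errors from 0.25 to 0.48. A p that misses the threshold does not show that the tissue difference was the same in both genotypes.

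Other genes that mark position were read beside the Hox genes. Of 19 transcription factors of the anterior head, 10 were higher in brain and 0 in aorta in Notch3 +/-, and 12 and 1 in Notch3 -/-, with medians of 1.09 and 0.90. For all named genes the shares were 19.6% and 16.7% in Notch3 +/-, and 25.9% and 20.7% in Notch3 -/-. Above the olfactory reference stood 3 of the 19 in Notch3 +/- brain and 4 in Notch3 -/- brain. Most of the calls higher in brain were thus of genes not above that reference there. Zic1, a zinc finger gene of the dorsal neural tube and the meninges, read 1620 ± 360.3 (SD, n = 4) and 1689 ± 413 (n = 5) in Notch3 +/- and -/- brain and 11.2 ± 2.33 and 18.4 ± 3.27 (n = 3 each) in aorta (log2 5.88 and 5.598). Foxd1, a forkhead gene of the ventral forebrain that is also known from kidney stroma, read 564 ± 254 and 576 ± 116 against 68.9 ± 14.2 and 81.3 ± 16.6 (log2 2.68 and 2.596). Zic2 and Lhx2 were higher in brain as well (adjusted p = 5.42e-05 and 1.05e-04 in Notch3 +/-). The list shares Otx2 with the choroid plexus markers, which were high in brain, and the part of those cells in these values was not tested.

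Of 35 genes of trunk mesoderm, heart and outflow tract, 11 were higher in brain and 11 in aorta in Notch3 +/-, and 11 and 13 in Notch3 -/-, so the list did not lean 1 way (medians 0.01 and 0.10). These counts stand beside the same shares of named genes. Gata6, a zinc finger gene of smooth muscle and heart, read 29.3 to 62.9 and 31.4 to 80.4 in Notch3 +/- and -/- brain and 527 to 779 and 635 to 676 in aorta (log2 -3.53 and -3.28). Osr1, a gene of intermediate and lateral mesoderm, was also higher in aorta (log2 -3.83 and -3.595). Tbx3 and Tbx1, T-box genes of the heart and the pharyngeal arches, were higher in brain (log2 3.72 and 3.07 in Notch3 +/-). Tbx3 read 533 to 762 in Notch3 +/- brain against 26.1 to 39.7 in aorta.

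**Figure D5:**
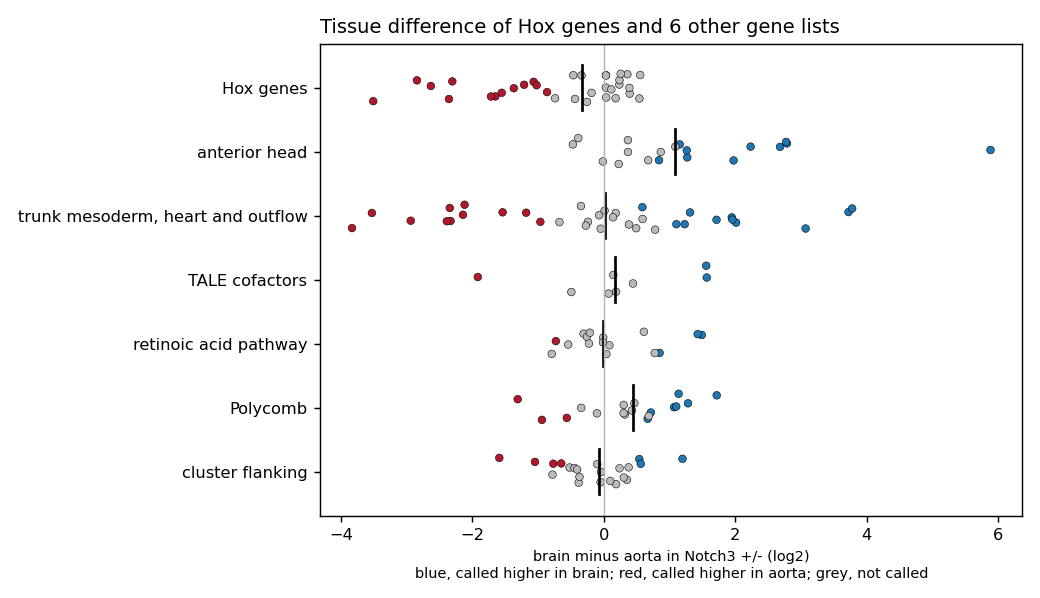
Log2 difference, brain minus aorta, in the Notch3 +/- arrays for the 33 Hox genes and 6 other gene lists, 1 point per gene at its brightest probe set, with a black bar at each list's median (blue, called higher in brain, red, called higher in aorta, grey, not called). The Hox row has red and no blue points (13 and 0), the anterior head row blue and no red points (10 and 0), and the trunk row 11 of each.

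Partners and regulators of Hox genes were called in both directions. Of all named genes, 19.6% were higher in brain and 16.7% in aorta in Notch3 +/-, and 25.9% and 20.7% in Notch3 -/-. Whether any of these lists departed from those shares was not tested. TALE homeodomain proteins bind DNA together with Hox proteins, and of 8 measured 2 were higher in brain and 1 in aorta in Notch3 +/-, and 3 and 2 in Notch3 -/- (medians 0.17 and 0.11). Meis2 read 174 ± 26.5 (SD, n = 4) and 193 ± 36.5 (n = 5) in brain and 697 ± 40.6 and 695 ± 36.5 (n = 3 each) in aorta (log2 -1.92 and -1.78), while Pbx3 and Pknox1 were higher in brain (log2 1.56 and 1.57 in Notch3 +/-). Retinoic acid turns on anterior Hox genes in the embryo, and of 16 genes of its pathway 3 were higher in brain and 1 in aorta in Notch3 +/-, and 5 and 3 in Notch3 -/- (medians -0.01 and 0.25). The receptor gene Rxrb, Rdh10, which makes the precursor of retinoic acid, and Cyp26b1, which degrades retinoic acid, were higher in brain (log2 1.49, 0.85 and 1.43), and the receptor gene Rxra in aorta (log2 -0.73).

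Polycomb proteins keep Hox clusters silent, and of 18 Polycomb genes 7 were higher in brain and 3 in aorta in Notch3 +/-, and 8 and 3 in Notch3 -/- (medians 0.45 and 0.35). The shares of named genes just given apply here too. Phc1, Jarid2 and Phf19 were higher in brain (log2 1.72, 1.14 and 1.28 in Notch3 +/-), Suz12, a core subunit of the complex that methylates histones, was higher in aorta (log2 -1.31), and Ezh2, the methyltransferase, was not called (adjusted p = 0.181 and 0.0853). Of 9 genes that counter Polycomb, 1 was higher in each tissue in Notch3 +/-, the demethylase gene Kdm6b in brain (log2 1.37) and Ash2l in aorta (log2 -0.73), and 1 and 3 in Notch3 -/-. None of 6 caudal and ParaHox genes was called in either genotype. None of the genes of these lists was called between genotypes in brain or aorta.

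Around the clusters, neighbouring genes were called in both directions, and more of them in Notch3 -/- than in Notch3 +/-. Of 22 genes that flank the 4 Hox clusters in the RefSeq gene order, 3 were higher in brain and 4 in aorta in Notch3 +/-, and 5 and 9 in Notch3 -/- (medians -0.07 and -0.05). Beside them stand 19.6% and 16.7% of named genes in Notch3 +/-, and 25.9% and 20.7% in Notch3 -/-. Jazf1 and Snx10 beside the A cluster and Mtx2 beside the D cluster were higher in aorta (log2 -1.59, -1.05 and -0.77 in Notch3 +/-), and Snx11 beside the B cluster in brain (log2 1.198). Inside the B cluster, the noncoding transcript Hoxb5os read 150.5 ± 26.9 (SD, n = 4) and 132 ± 35.4 (n = 5) in brain and 416 ± 89.1 and 431 ± 43.6 (n = 3 each) in aorta (log2 -1.37, SE 0.19, adjusted p = 3.91e-04, and log2 -1.62, SE 0.19, adjusted p = 2.53e-05). It was the only one of 5 measured noncoding and Evx genes of the clusters to be called, and its locus overlaps that of Hoxb5, and which strand its probes read was not checked here.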

How the data were processed

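The authors deposited 1 table of linear probe-set intensity for all 15 arrays, scaled by them to a target of 150 with 15 µg of cRNA per array, per the labels and the design text. How probes were summarised, any detection calls and the genome build are not stated in those sources. The 2% trimmed mean was 150 on every array. Of 45101 probe sets, 34958 carried 1 symbol, 932 several and 9211 none; a RefSeq table (GRCm38.p6, used for names and gene order) gave current symbols for 34754 of them by Entrez identifier, and 204 kept the older one.

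The 64 control probe sets were left out. Values were taken as log2(value + 16), so folds of dim probe sets are understated. All 45037 other probe sets were fitted without a brightness filter, since a filter on the mean would keep a Hox gene only through the tissue where it is high. The test was limma 3.58.1 under R 4.3.3, two-sided, with eBayes moderation along an intensity trend and Benjamini-Hochberg adjustment at 5%. Brain was compared with aorta within each genotype (7 and 8 arrays), Notch3 -/- with +/- within each tissue (9 and 6 arrays), and the genotype differences between tissues over all 15. Pearson's r over probe sets within a group was 0.932 to 0.981, and no pair of replicates shared more than 0.00666% of exact values. Each array was treated as 1 replicate, and these values cannot show whether aorta arrays came from different mice. The fits were tested on simulated data. The number of arrays limits the precision.

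Each gene is represented by its brightest probe set (highest mean log2 value over the 15 arrays). Array values are given for up to 12 genes with the widest tissue difference among those called in both genotypes and for the 4 smallest p of each genotype comparison, and from each other list up to 4 genes by smallest p in Notch3 +/-; others are said to be outside this rule or follow from a count. The members, the marker and pathway lists and this rule were chosen with earlier results of these data known. What the letters of the brain replicates stand for is not stated, and A to D and F are Notch3 -/-, E and G to I Notch3 +/-, so any order they follow nearly coincides with genotype. Alternatives were the brightness filter, pseudocounts of 1 and 64, quantile normalization, no trend, array weights, averaged probe sets, 1 fit of all arrays, the aorta name series as a block, other reference levels and leaving out each array.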

Additional observations from a re-analysis of the deposited data

Results flagged for a closer look

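Of 34 sets of values tested for a lone array (groups of 4 or 5 brain arrays, for the genes that the naming rule chose and not for others the report mentions), 2 had 1 array apart from the others beyond the limit of Dixon's test, where chance gives about 1 in 20. Hoxc4 read 5.13 in Notch3 +/- brain replicate I, against 2.46 to 2.79 in the other 3 arrays of that group. Hoxd12 read 4.76 in Notch3 +/- brain replicate E, against 6.30 to 6.54 in the other 3. All these readings lay far below the olfactory reference, and the reason for either was not tested.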

How the results depend on the processing

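For the genes that the naming rule chose, each in the comparison it was chosen for, 556 results of alternative settings kept the direction and the side of the threshold. Another 13 kept the direction but lost the call, all in Notch3 +/- brain against aorta (Hoxb2 and Hoxa10 6 times each, Hoxc4 once), and 0 reversed. The 556 include the genes of the genotype comparisons and of the difference between them, none of which was called. For those the side kept was that of no call. Under the brightness filter 11 and 10 Hox genes were left to test in Notch3 +/- and -/-, and the calls higher in aorta were 8 and 7 and those higher in brain in Notch3 -/- 0, as also after quantile normalization. This filter can keep a Hox gene only through the aorta arrays, where it is high, so the filtered counts add no support. No share over all genes was taken under it. Leaving out 1 array gave 9 to 13 and 14 to 16 calls higher in aorta in Notch3 +/- and -/-, and 0 to 1 higher in brain in each (1 in Notch3 +/- without replicate I or H). The genotype comparisons and the difference between them gave 0 Hox calls without any array. Hox genes above the reference in Notch3 +/- brain numbered 2 at the 90th percentile, 4 against the array median, 3 by group means and 0 to 2 without 1 array. In Notch3 -/- brain they numbered 2, 3 and 2 by the same settings, 0 at the 99th percentile and 1 without any 1 array. Signal near the olfactory reference limits what can be said of dim Hox genes. No paired analysis was possible because replicate names are not shared between groups; with the series of aorta replicate names as a block, 0 Hox genes were called between genotypes in aorta.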
